A study of Mus musculus with 8 samples.

Results

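The 7 genes described here encode the core of cohesin and its loader: Smc1a, Smc3, Rad21, Stag1, Stag2, Nipbl and Mau2. They were chosen by name, as the rows of a table of newly made RNA whose gene symbol is one of these, and all 7 were found among its 16940 genes. Stag1 was 1.57-fold higher in mouse embryonic stem cells given the auxin IAA to deplete CTCF than without it. Stag2, Smc1a and Mau2 were 1.13- to 1.17-fold higher, while Smc3, Rad21 and Nipbl did not pass the test. Of all tested genes 37.7% were called, and the calls of Smc1a and Mau2 were lost when certain single libraries were left out. In the cells that also overexpressed CTCF, Stag1 lay between the untreated and the depleted level in all 4 libraries.

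Cohesin is a ring-shaped protein complex that holds DNA. SMC1A and SMC3 are the long coiled-coil ATPase arms, RAD21 is the kleisin that closes the ring, and one of the alternative subunits STAG1 or STAG2 binds RAD21. NIPBL and MAU2 form the loader, and NIPBL also stimulates the ATPase that lets cohesin extrude chromatin loops. CTCF, a DNA-binding zinc-finger protein, halts extruding cohesin through a contact that involves the STAG and RAD21 subunits, so that loops tend to end at CTCF sites.

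All libraries came from the E14 line of mouse embryonic stem cells in which CTCF carries an auxin-inducible degron (AID), a tag through which the auxin IAA triggers destruction of the protein. The 4 groups, each with 2 replicates, were a control overexpression line without IAA, the same control line with IAA for 12 h, and lines overexpressing wild-type or mutated CTCF, both with IAA for 12 h. The degron was therefore present in every group, and overexpression of the CTCF proteins without IAA was not part of the design. The labels name neither the mutation, the promoter of the overexpression construct nor whether a line is 1 clone, and they do not say that replicates are separate cultures, so p-values measure only the spread between these samples. The cells grew without serum, with leukemia inhibitory factor and the inhibitors PD0325901 and CHIR99021. Newly made RNA was measured by transient transcriptome sequencing (TT-seq): 4-thiouridine at 400 µM marked RNA for 15 min, and the marked fragments were captured and sequenced.

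Values are normalized reads, that is reads counted per gene and divided by 1 factor per library by the authors. Depth was 15671114 to 21561141 reads per library, and Pearson's r between replicates, across genes on the log2 scale, was 0.995 to 0.996. Of 7 embryonic stem cell markers, 7 were listed, and their summed level was 47624 to 48480 in the untreated group, 50121 to 51543 with IAA, 54598 to 58182 in the wild-type CTCF line and 54131 to 56754 in the mutated one. With IAA 1 of them was higher, Tfcp2l1 (13438 ± 261 to 18581 ± 752), and 2 were lower, Esrrb (15464 ± 249 to 13987 ± 372) and Zfp42 (10021 ± 55.1 to 9012 ± 44.4). At an adjusted p under 0.05 in limma, 19.4% of all tested genes were higher and 18.4% lower with IAA. Over the library scalings described below, 1 to 2 markers were higher and 2 lower. Against untreated, 3 to 5 were higher in each CTCF line over these scalings, and 0 to 1 (wild-type) or 1 (mutated) lower. With the authors' scaling 27.6% (wild-type) and 24% (mutated) of all genes were higher there, and 15.6% and 13.7% lower. Of 4 fibroblast markers 0 were listed, and of 4 neural markers 1 was listed at a sum of 3.13 to 19.2. Of 4 primitive endoderm markers 2 were listed at a sum of 155 to 229.9. That sum was highest with IAA in the control line, at 201 and 229.9, against 170 and 194 untreated. It joined 2 genes called in opposite directions with IAA, Gata4 higher (104 ± 1.32 to 164 ± 31.9) and Gata6 lower (77.4 ± 18.5 to 51.1 ± 11.7). Of 4 trophoblast markers 2 were listed at a sum of 547 to 890. The trophoblast sum was highest with wild-type CTCF, at 804 and 890. Nearly all of it was Tfap2c, at 796 and 879 there, with Gata3 at 8.74 and 10.7. The part of these differences in the results below was not tested. In bulk RNA, fewer cells of a type and less RNA per cell cannot be told apart.

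Stag1 is by far the longest of the 7 genes. It spans chr9:100597798-100959375 on the plus strand of GRCm38 (mm10), 362 kb in GENCODE M21. Nipbl spans chr15:8290617-8444463 on the minus strand (154 kb), and Stag2 spans chrX:42149317-42277185 on the plus strand (128 kb). The others were shorter: Smc1a at chrX:152016428-152062694 (plus, 46.3 kb), Smc3 at chr19:53600398-53645833 (plus, 45.4 kb), Rad21 at chr15:51962240-51991747 (minus, 29.5 kb) and Mau2 at chr8:70016123-70042734 (minus, 26.6 kb). All are protein-coding, and a value counts reads assigned to the gene, for which the counted feature (exons or the whole body) is not given in the sources used here.

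Promoter sequences from RefSeq, on GRCm38.p6, were matched by symbol for 4 of the 7 members. The 250 bases before the start site are shown for Stag1, the member that moved most, and for Smc3, which did not pass the test after IAA. Capitals mark CG dinucleotides, of which Stag1 has 31 (GC content 71.2%) and Smc3 has 26 (64.4%). The Stag1 stretch is chr9:100643198-100643447 and the Smc3 stretch is chr19:53600146-53600395, both read on the plus strand.
Stag1: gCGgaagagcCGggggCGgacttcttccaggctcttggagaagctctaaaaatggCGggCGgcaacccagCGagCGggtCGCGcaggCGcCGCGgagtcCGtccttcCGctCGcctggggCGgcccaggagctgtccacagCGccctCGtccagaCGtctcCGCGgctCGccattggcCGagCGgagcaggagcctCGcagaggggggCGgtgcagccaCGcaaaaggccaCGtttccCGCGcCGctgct
Smc3: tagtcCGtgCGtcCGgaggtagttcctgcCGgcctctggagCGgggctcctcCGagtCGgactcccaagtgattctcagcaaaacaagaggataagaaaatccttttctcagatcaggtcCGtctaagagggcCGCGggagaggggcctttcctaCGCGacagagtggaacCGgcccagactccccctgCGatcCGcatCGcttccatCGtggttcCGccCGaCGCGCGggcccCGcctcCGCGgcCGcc
The median over 32851 promoters of the same table was 6 CG dinucleotides, with 5.19% holding at least as many as Stag1 and 9.59% at least as many as Smc3. The Stag1 start in RefSeq lies 45.65 kb downstream of the GENCODE start given above.

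Per kilobase of gene body, the untreated level fell in the order Rad21 (215 ± 5.47 normalized reads per kb, SD, n = 2), Smc3 (109 ± 1.93), Nipbl (86.2 ± 3.21), Stag1 (81.3 ± 2.29), Stag2 (44.0 ± 1.69), Smc1a (37.0 ± 0.59) and Mau2 (19.99 ± 0.73). The kleisin was thus the highest and the small loader subunit the lowest. Nipbl and Stag1 were neighbours at 83.9 and 88.5 against 79.6 and 82.9 per kb in the libraries, a gap smaller than the sum of their SDs, and their order turns if the Stag1 body is counted from the RefSeq start (93.0 per kb). The other neighbours were separated by more than the sum of their SDs. Among 13130 protein-coding genes, whose median was 17.5 per kb, Rad21 stood at percentile 97.3, Smc3 at 92.9, Nipbl at 89.9, Stag1 at 88.9, Stag2 at 75.8, Smc1a at 71.1 and Mau2 at 53.5. The 2 SMC arms, which pair one to one in the protein ring, thus differed in level, with Smc1a over Smc3 at 0.34 in both untreated libraries. With IAA, Stag1 reached 127.8 ± 1.61 per kb and stood second in the order. If the values were divided by the length of merged exons instead, Stag1 came first in every group.

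**Figure D1:**
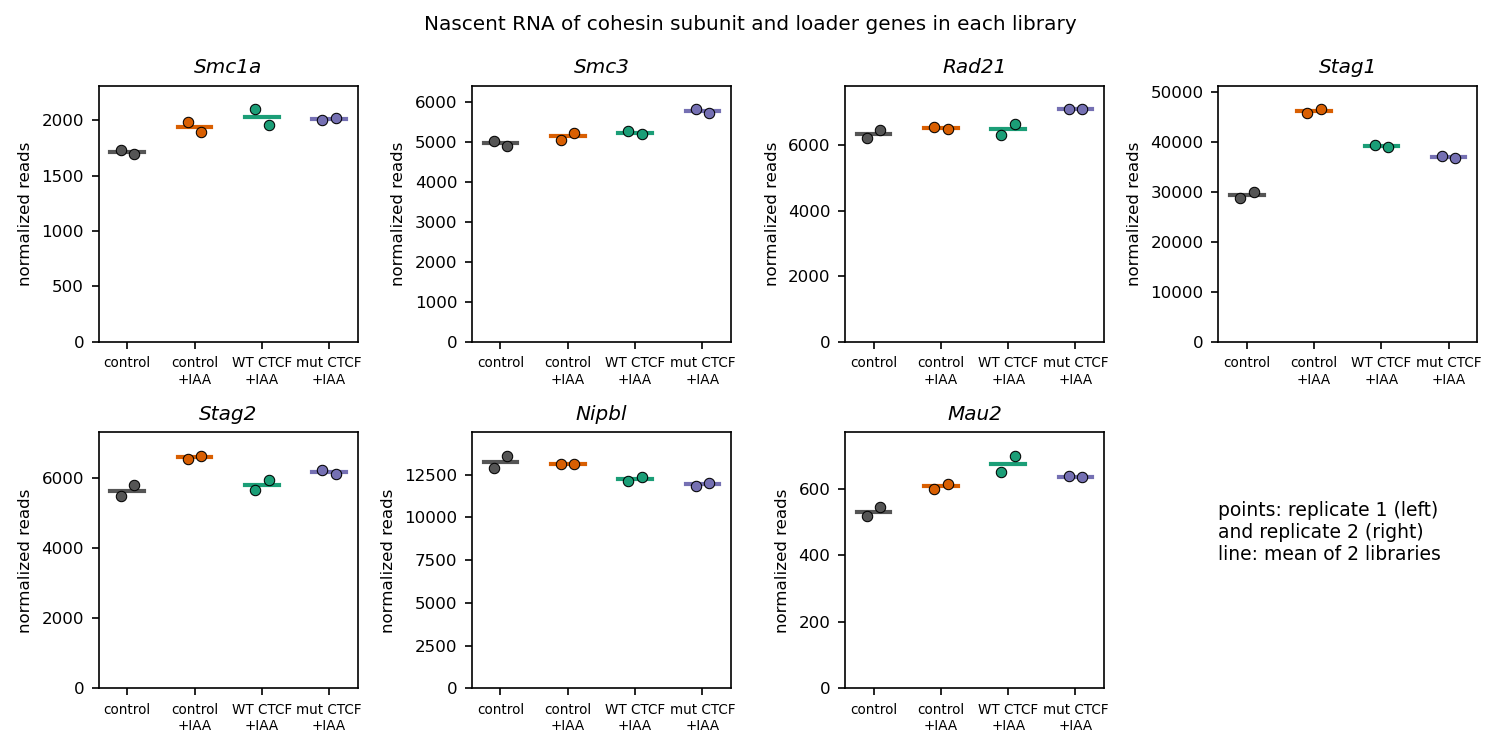
Normalized reads of each of the 7 genes in the 8 libraries, one panel per gene with its own axis; points are libraries and horizontal lines are group means (n = 2). The Stag1 points of the control line with IAA, at 45808 and 46632, lie above the points of all other groups.

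The control line with IAA, called the depleted control below, was compared with the same line without IAA. No group received IAA without the degron, and CTCF levels are not reported here. An effect of IAA apart from the loss of CTCF was therefore not tested. Of the 7 members, 4 were higher and 0 were lower at an adjusted p under 0.05, where 37.7% of 15818 tested genes were called, 19.4% as higher and 18.4% as lower. At an unadjusted p under 0.05 in limma the members again gave 4 higher and 0 lower, where 23.1% of genes were higher and 22.3% lower. The median log2 difference was 0.18 over the members and -0.0017 over all tested genes. The libraries of the groups did not overlap for 6 members, against 68.2% of all genes. An exact permutation test of 2 against 2 libraries cannot go below a p of 0.333, so the tests given are those of the limma fit across all genes.

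Stag1, one of the alternative STAG subunits, moved most. It had 28799 and 29972 normalized reads in the untreated control libraries, 45808 and 46632 in the control with IAA, 39401 and 39102 in the wild-type CTCF line and 37278 and 36818 in the mutated one. The 4 groups did not overlap, and their order on the deposited scale was untreated, mutated CTCF, wild-type CTCF, depleted control; the order of the CTCF lines turned after the length and GC correction given below. The log2 difference with IAA was 0.65 (SE 0.025, 95% interval 0.60 to 0.70, adjusted p = 9.4e-24), and it was past the threshold under every alternative that was run. Of the tested genes 910 (5.75%) rose at least as much, and of the 961 genes of at least 200 kb, 110 (11.4%) did. Stag2 had 5471 and 5777 in the untreated libraries, 6542 and 6621 with IAA, 5634 and 5933 with wild-type CTCF, and 6227 and 6106 with mutated CTCF. The depleted control was the highest group for Stag2 too, and its log2 difference from untreated was 0.23 (SE 0.036, adjusted p = 1.7e-06).

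The ring arms and the kleisin moved little or not detectably. Smc1a had 1732 and 1693 in the untreated libraries against 1987 and 1893 with IAA, without overlap, a log2 difference of 0.18 (SE 0.047, adjusted p = 0.0022). This call was lost without replicate 1 of the control with IAA (0.14, adjusted p = 0.062). Smc3, at 5034 and 4910 against 5060 and 5232, gave 0.049 (95% interval -0.021 to 0.12, adjusted p = 0.28). The groups lay close, and the interval leaves room for a rise of 8.7%. Rad21, at 6234 and 6462 against 6562 and 6515, gave 0.043 (95% interval -0.026 to 0.11, adjusted p = 0.34). For the loader, Nipbl overlapped between the groups, at 12912 and 13612 against 13150 and 13125, with a log2 difference of -0.013 (95% interval -0.074 to 0.047, adjusted p = 0.77). Mau2, which binds the amino-terminal end of NIPBL, was higher, at 518 and 546 against 600 and 616 (log2 difference 0.19, SE 0.068, adjusted p = 0.023). Mau2 rested on the fewest reads, 504 to 743 per library, and its call remained only when replicate 2 of the untreated control was the library left out; without replicate 1 of that group it was 0.16 (adjusted p = 0.18), and without replicate 1 or 2 of the control with IAA 0.21 (0.056) or 0.17 (0.12).

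**Figure D2:**
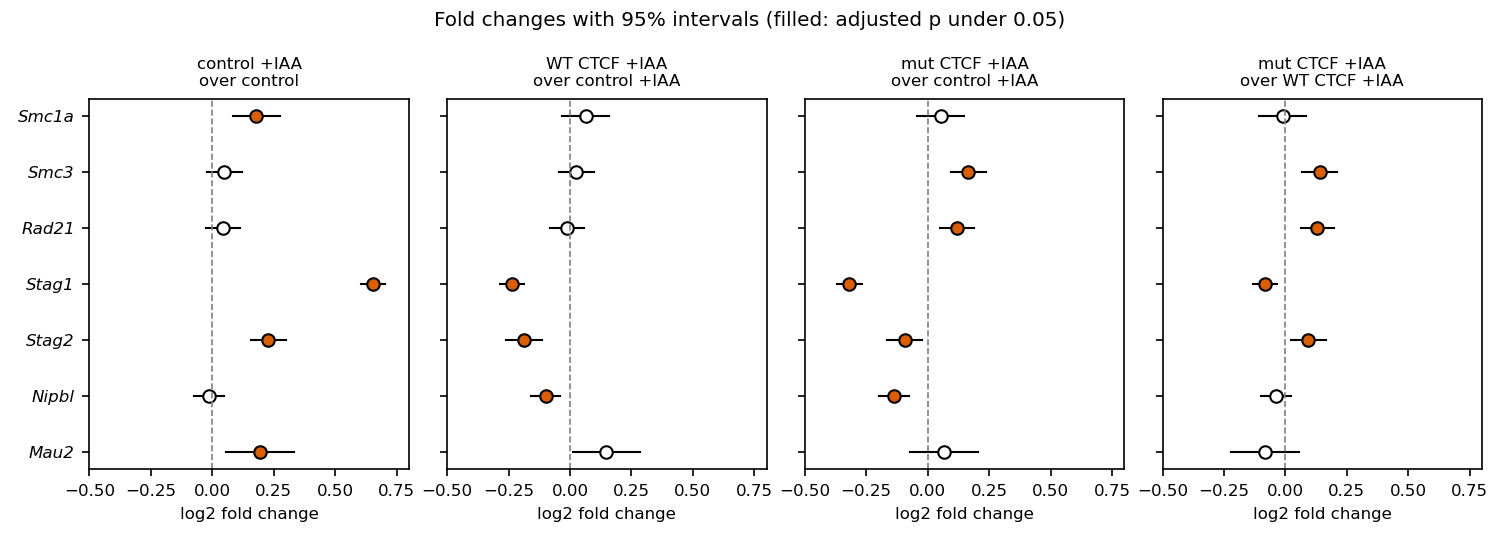
Log2 fold change of each of the 7 genes in 4 of the 6 comparisons, from the limma fit; points are estimates (filled where the adjusted p is under 0.05), bars are 95% confidence intervals, and 0 is no difference. In the comparison of IAA with no IAA, Stag1 stands at 0.65 and Nipbl at -0.013.

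The lines that overexpressed CTCF were each compared with the control line with IAA, so these comparisons share the 2 depleted control libraries with each other and with the IAA comparison. With wild-type CTCF, 0 members were higher and 3 were lower, where 31.6% of genes were called, 21.5% as higher and 10% as lower. At an unadjusted p under 0.05 in limma 1 member, Mau2, was higher, and 3 were lower, where 27.7% of genes were higher and 13.6% lower. The median was -0.011 over the members and 0.057 over all genes, and the libraries of 4 members did not overlap, against 64.4% of genes. Stag1 was lower by 0.24 on the log2 scale (0.849-fold, adjusted p = 7.5e-10), and Stag2 was lower by 0.19 (0.878-fold, adjusted p = 7.7e-05). Both had been highest in the depleted control. Nipbl, at 12151 and 12380 with wild-type CTCF, was lower by 0.099 (adjusted p = 0.0098). That call was lost without replicate 1 or 2 of the control with IAA (-0.098 and -0.10, adjusted p = 0.071 and 0.061) or replicate 1 of wild-type CTCF (-0.086, adjusted p = 0.080). Mau2 at 650 and 699.7 (0.15, adjusted p = 0.093), Smc1a at 2100 and 1958 (0.064, adjusted p = 0.32), Smc3 at 5271 and 5200 (0.025, adjusted p = 0.63) and Rad21 at 6330 and 6651 (-0.011, adjusted p = 0.84) did not pass the test.

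With mutated CTCF, 2 members were higher and 3 were lower, where 34.3% of genes were called, 22% as higher and 12.4% as lower. At an unadjusted p under 0.05 the members gave the same counts, where 27.3% of genes were higher and 15.8% lower. The member median was 0.053, against 0.055 for all genes, and the libraries of 7 members did not overlap, against 65.1% of genes. Stag1 was lower than in the depleted control by 0.32 (0.802-fold, adjusted p = 1.7e-13). After a correction for gene length and GC content, described below, this difference was -0.11 (adjusted p = 1.5e-08). Nipbl, at 11862 and 12046, was lower by 0.14 (adjusted p = 3.8e-04). It was at -0.23 to -0.066 over 6 scalings, all called, but at -0.0076 (adjusted p = 0.79) after the length and GC correction. Stag2 was lower by 0.094 (adjusted p = 0.036), but at 0.013 (adjusted p = 0.72) after that correction. The Stag2 call was lost when any of the 4 libraries was left out, with -0.10 and -0.085 without replicate 1 or 2 of the control with IAA (adjusted p = 0.10 and 0.17) and -0.11 and -0.080 without replicate 1 or 2 of mutated CTCF (adjusted p = 0.073 and 0.21). Smc3, at 5821 and 5719, was higher by 0.17 (adjusted p = 2.5e-04), and Rad21, at 7105 and 7102, was higher by 0.12 (adjusted p = 0.0051). These 2 ring subunits were thus at their highest in the mutated CTCF line. Smc3 passed in 4 of 6 scalings and Rad21 in 3 of 6. After the length and GC correction Smc3 was at 0.10 (adjusted p = 0.0038) and Rad21 at 0.019 (adjusted p = 0.56). Mau2 at 638 and 636 (0.067, adjusted p = 0.49) and Smc1a at 2004 and 2020 (0.053, adjusted p = 0.42) did not pass.

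The mutated and the wild-type CTCF lines were then compared directly. Here 3 members were higher with mutated CTCF and 1 was lower, where 34.7% of genes were called, 16.3% as higher and 18.4% as lower, and 6 members did not overlap, against 65.5% of genes. The median was -0.011 over the members and -0.0087 over all genes. Smc3 was higher by 0.14 (95% interval 0.069 to 0.21, adjusted p = 0.0016) and Rad21 by 0.13 (95% interval 0.062 to 0.20, adjusted p = 0.0024). Stag2 was higher by 0.093 (adjusted p = 0.039), and Stag1 was lower by 0.083 (adjusted p = 0.0076), so the alternative STAG subunits moved in opposite directions on the deposited scale. Leaving out replicate 1 of wild-type CTCF ended the calls of Rad21 (0.095, adjusted p = 0.080), Stag1 (-0.078, 0.067) and Stag2 (0.056, 0.36). Leaving out replicate 1 or 2 of mutated CTCF ended those of Stag1 (-0.092 and -0.074, adjusted p = 0.054 and 0.12) and Stag2 (0.079 and 0.11, adjusted p = 0.22 and 0.075). Nipbl (-0.037, 95% interval -0.098 to 0.023), Mau2 (-0.082, -0.22 to 0.056) and Smc1a (-0.011, -0.11 to 0.084) did not pass the test.

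Against the untreated control, which both lines share as reference here and which also enters the IAA comparison, Stag1 was still higher: by 0.42 in the wild-type CTCF line (1.34-fold, adjusted p = 4.4e-17) and by 0.33 in the mutated one (1.26-fold, adjusted p = 3.0e-14). With wild-type CTCF 3 members were higher and 1 was lower, where 43.2% of genes were called (27.6% higher, 15.6% lower), and 5 did not overlap, against 71.5% of genes. With mutated CTCF 6 were higher and 1 was lower, where 37.8% of genes were called (24% higher, 13.7% lower), and 7 did not overlap, against 67.9%. The member medians were 0.075 and 0.21, and those of all genes 0.053 and 0.052. Mau2 was higher by 0.34 (adjusted p = 8.0e-05) in the wild-type line and 0.26 (adjusted p = 0.0022) in the mutated line, and Smc1a by 0.24 (adjusted p = 5.0e-05) and 0.23 (adjusted p = 1.1e-04). Nipbl was lower by 0.11 (adjusted p = 0.0023) and 0.15 (adjusted p = 9.5e-05). After the length and GC correction Nipbl was at -0.093 (adjusted p = 1.2e-04) and -0.043 (adjusted p = 0.064). In the same order of lines, Stag2 was at 0.040 (adjusted p = 0.37) and 0.13 (adjusted p = 0.0026), Smc3 at 0.075 (adjusted p = 0.082) and 0.21 (adjusted p = 3.9e-06), and Rad21 at 0.032 (adjusted p = 0.47) and 0.16 (adjusted p = 1.7e-04). In the wild-type line Stag2 (0.065, adjusted p = 0.027) and Smc3 (0.071, adjusted p = 0.032) passed after the length and GC correction. With mutated CTCF, leaving out replicate 1 of the untreated control ended the calls of Stag2 (0.094, adjusted p = 0.073) and Mau2 (0.22, adjusted p = 0.054).

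Ratios within a library do not depend on how libraries were scaled, and were given per kilobase of gene body. Stag1 over Stag2 was 1.86 and 1.83 in the untreated libraries, 2.48 and 2.49 with IAA, 2.47 and 2.33 with wild-type CTCF, and 2.12 and 2.13 with mutated CTCF. The 2 alternative subunits thus stood furthest apart in the depleted control and wild-type CTCF libraries, which lay next to each other, and closest in the untreated ones. Stag1 over Nipbl was 0.95 and 0.94 untreated, 1.48 and 1.51 with IAA, 1.38 and 1.34 in the wild-type CTCF line and 1.34 and 1.30 in the mutated one. Stag1 over Smc3 was 0.72 and 0.77, then 1.14 and 1.12, then 0.94 and 0.94, and 0.80 and 0.81 in the same order of groups. The ratios do not include the length and GC correction given below. After it, mutated against wild-type CTCF was at 0.072 for Stag1 and 0.10 for Smc3 on the log2 scale, against -0.083 and 0.14 before. In the loader, Nipbl over Mau2 was 4.31 in both untreated libraries, 3.79 and 3.69 with IAA, 3.24 and 3.06 with wild-type CTCF, and 3.21 and 3.28 with mutated CTCF, so it was lower in each group with IAA than without. These ratios were chosen after the values had been seen and were given no test.

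**Figure D3:**
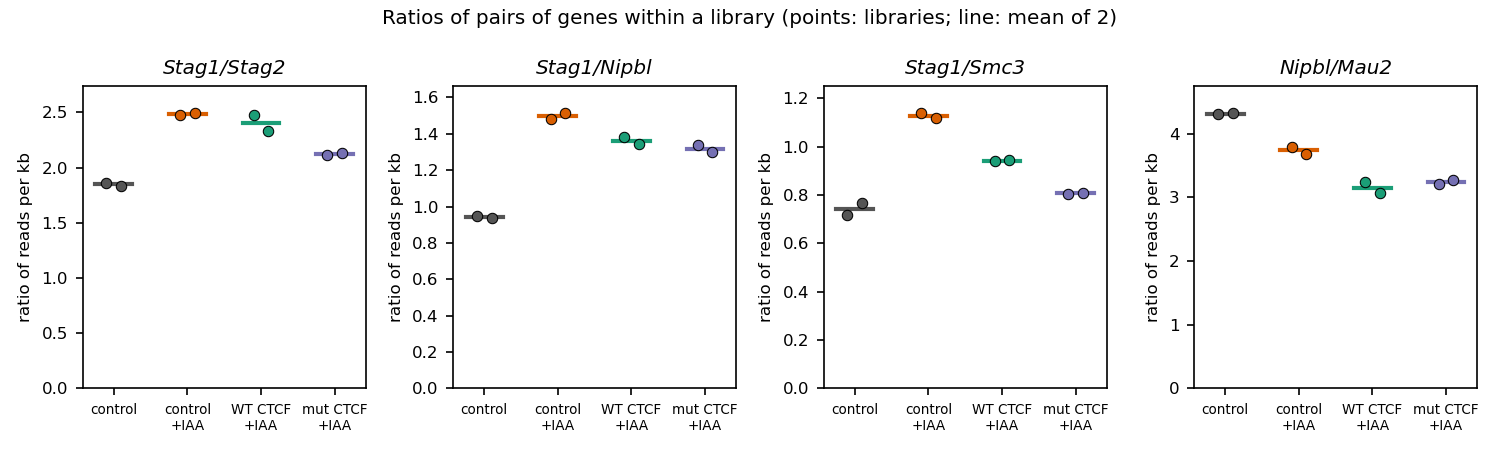
Ratios of normalized reads per kilobase of gene body between members, by library; points are libraries, grouped by condition (n = 2). Stag1 over Stag2 runs from 1.83 in an untreated library to 2.49 in a library of the control with IAA.

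Because the long genes could be sensitive to how libraries are scaled, each comparison was refitted under 5 other scalings, which changed the factor of a library to between 0.949 and 1.06 of the deposited one. Stag1 in mutated against wild-type CTCF, at -0.089 to -0.024, passed in 4 of 6. Across all 6 scalings Stag1 with IAA was at 0.60 to 0.67 and Stag2 at 0.17 to 0.25, each past the threshold in 6 of 6. In the wild-type line against the depleted control, Stag1 was at -0.33 to -0.22, and with mutated CTCF at -0.41 to -0.25, again in 6 of 6. The Nipbl values with IAA ran from -0.069 to 0.0069 and passed in 2 of 6, so its direction turned with the scaling. With wild-type CTCF against the depleted control, Nipbl was at -0.20 to -0.088 and passed in 6 of 6. After the length and GC correction described next it was at -0.058 there (adjusted p = 0.016). Mau2 with IAA was at 0.14 to 0.21 and passed in 4 of 6. With mutated CTCF against the depleted control, Smc3 passed in 4 of 6 (0.074 to 0.24), Rad21 in 3 of 6 (0.028 to 0.19) and Stag2 in 5 of 6 (-0.19 to -0.024). Smc1a passed there in 1 of 6 (-0.038 to 0.12), and Mau2 with wild-type CTCF against the depleted control in 1 of 6 (0.053 to 0.16). Stag2 with mutated CTCF against untreated passed in 3 of 6 (0.048 to 0.15) and was at 0.23 (adjusted p = 4.9e-09) after the length and GC correction. Rad21 in the wild-type line against the depleted control ran from -0.11 to 8.0e-05 and passed as lower in 2 of 6, as it did after the length and GC correction described next (-0.059, adjusted p = 0.041). The share of all calls that were higher also turned: with wild-type CTCF it was 68.3% on the deposited scale and 37.8% to 71.4% over the scalings, with mutated CTCF 63.9% and 37.5% to 78.2%, with IAA 51.3% and 37.6% to 55.9%, and for mutated against wild-type CTCF 46.9% and 45.7% to 63.3%. Against the untreated control it was 64.0% and 45.5% to 64.0% with wild-type and 63.6% and 42.5% to 66.7% with mutated CTCF.

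**Figure D4:**
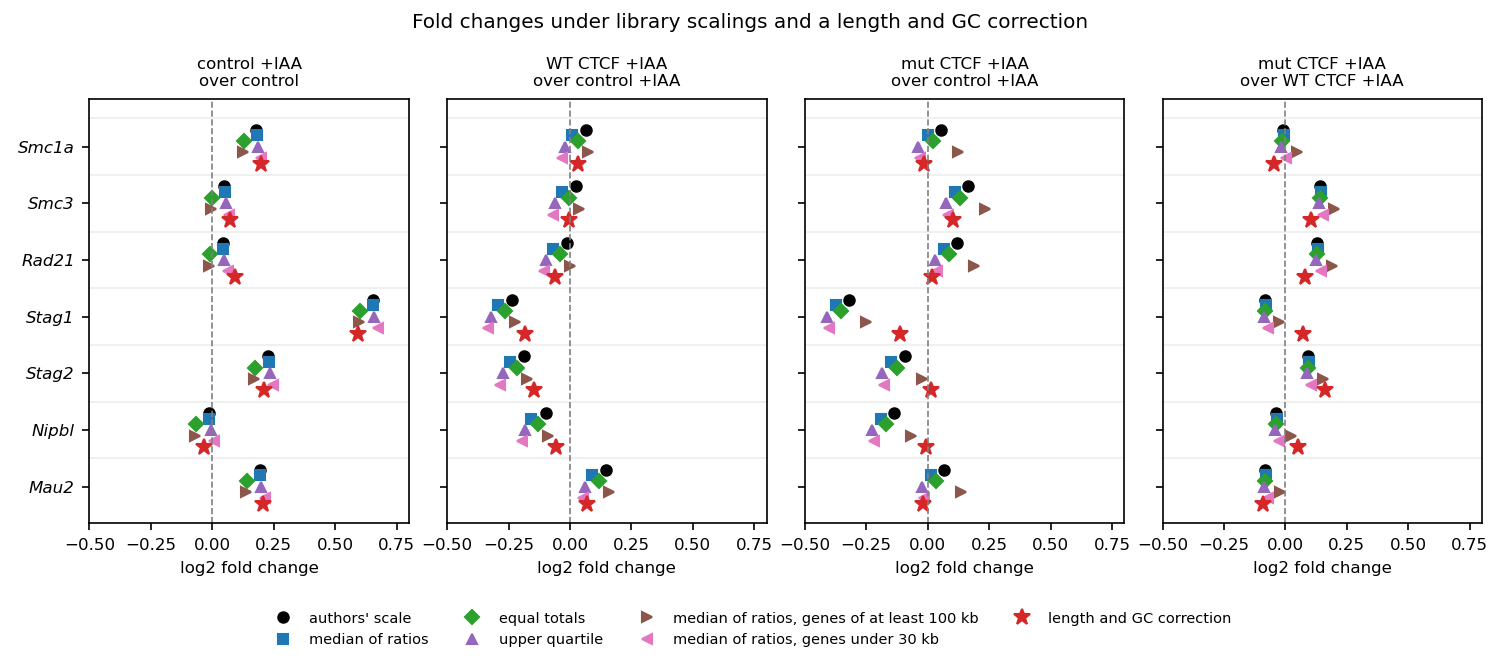
Log2 fold change of each gene under the 6 library scalings and after the length and GC correction, in 4 of the 6 comparisons; each marker is one setting. With IAA the Stag1 markers lie between 0.59 and 0.67, whereas those of Nipbl fall on both sides of 0.

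Gene length itself went with the differences. With IAA the median log2 difference was -0.020 for genes under 30 kb (n = 9014), 0.00064 for 30 to 100 kb (n = 4454), 0.046 for 100 to 200 kb (n = 1370) and 0.082 for at least 200 kb (n = 961). For mutated CTCF against the depleted control the same classes were at 0.085, 0.057, -0.035 and -0.16, and for wild-type CTCF at 0.096, 0.034, -0.012 and -0.019. For mutated against wild-type CTCF they were at -0.017, 0.020, -0.020 and -0.13. Stag1, in the longest class, was higher with IAA and lower with both CTCF proteins, as the median of its class was, but by more. After a correction for length and GC content in each library, Stag1 was at 0.59 with IAA, -0.18 in the wild-type CTCF line and -0.11 in the mutated one (adjusted p = 1.2e-25, 5.9e-13 and 1.5e-08). For mutated against wild-type CTCF, however, Stag1 turned from -0.083 to 0.072 (adjusted p = 1.8e-05), so the direction of that difference depended on the correction. Nipbl there was at 0.050 (adjusted p = 0.031), and with mutated CTCF against the depleted control Stag2 was at 0.013 (adjusted p = 0.72) and Rad21 at 0.019 (adjusted p = 0.56). Nipbl with mutated CTCF against untreated was at -0.043 (adjusted p = 0.064). Among the shorter members Smc3 kept a difference of 0.10 between the CTCF lines (adjusted p = 0.0026) and Rad21 one of 0.078 (adjusted p = 0.0058). With IAA, Rad21 (0.094, adjusted p = 9.6e-04) and Smc3 (0.073, adjusted p = 0.029) passed after the correction, whereas they did so in 0 of the 6 scalings.

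**Figure D5:**
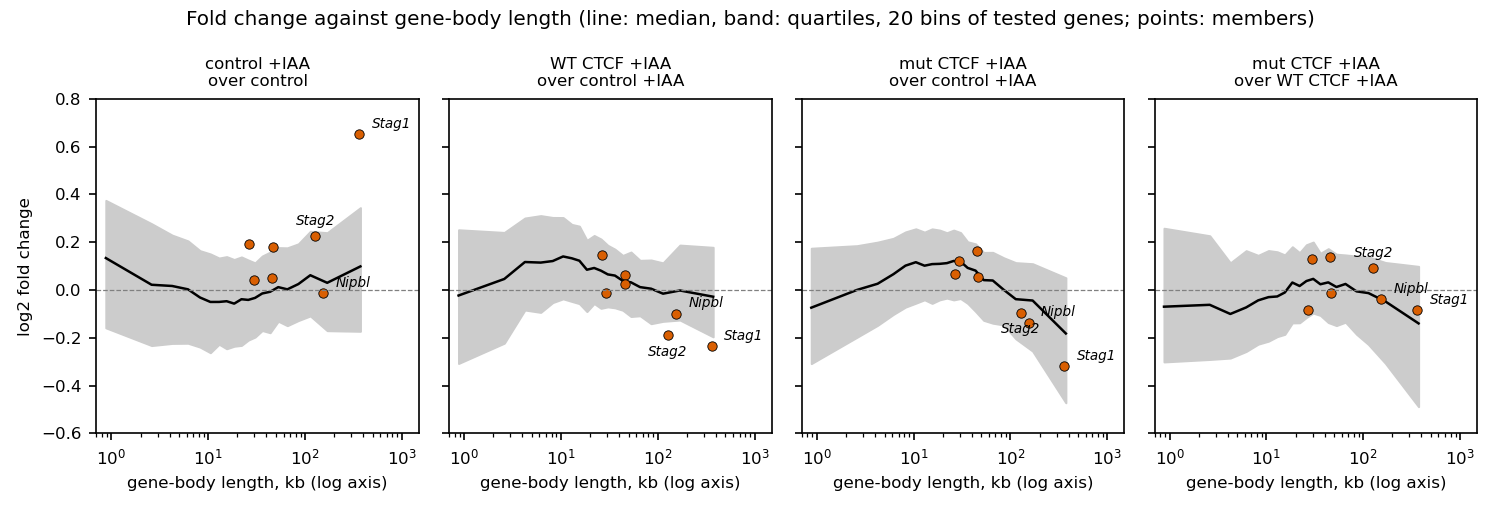
Log2 fold change against gene body length (log axis, kb) for 4 comparisons; the line joins medians and the band quartiles of 20 length bins of the tested genes, and points are the 7 members, with the 3 longest labelled. For mutated against wild-type CTCF the median falls to -0.13 in genes of at least 200 kb, and Stag1 lies at -0.083.

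Genes that handle cohesin once it is on DNA were called in both directions with IAA. Of 10 regulators, 1 was higher and 2 were lower with IAA, and their median was 0.024, where 19.4% of all genes were higher and 18.4% lower. Esco2, which acetylates SMC3 during replication, fell from 1886 ± 14.7 to 1323 ± 77.8 normalized reads (log2 difference -0.51, adjusted p = 2.9e-11) and reached 1611 ± 23.0 in the wild-type line and 1789 ± 37.1 in the mutated line, higher than the depleted control in both (0.28 and 0.44, adjusted p = 1.9e-05 and 3.2e-09). Sgo1, the shugoshin that protects centromeric cohesin, fell by 0.25 with IAA (adjusted p = 7.9e-05), and Pds5b, a HEAT-repeat protein that binds RAD21, rose by 0.22 (adjusted p = 1.4e-06). Wapl, the release factor, was at 0.018 (adjusted p = 0.69). For the wild-type line against the depleted control 1 regulator was higher, Esco2, and 1 was lower, Pttg1, which encodes securin (-0.34, adjusted p = 0.0018), while over the scalings 1 to 6 of the 10 were lower, and 21.5% of genes were higher and 10% lower on the deposited scale. With mutated CTCF Esco2 and Sgo1 (0.27, adjusted p = 4.6e-05) were higher, and Hdac8, the deacetylase of SMC3, was lower (-0.32, adjusted p = 6.1e-05), while over the scalings 2 to 5 were higher and 1 to 3 lower, and 22% of genes were higher and 12.4% lower on the deposited scale. Comparing the CTCF lines directly, 4 of the 10 were higher with the mutated protein and 1, Hdac8 (-0.27, adjusted p = 6.6e-04), was lower, where 16.3% of genes were higher and 18.4% lower.

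The related complexes were counted in the same way, and their counts stand against the same shares of all genes called in each comparison: 19.4% higher and 18.4% lower with IAA, 21.5% and 10% in the wild-type line, 22% and 12.4% in the mutated line, and 16.3% and 18.4% between the lines. Of 4 germline cohesin subunits 3 were listed, and with IAA 0 were higher and 1 was lower: Smc1b, the meiotic counterpart of Smc1a, by 0.41 (adjusted p = 1.7e-07). Between the 2 CTCF lines, Smc1b (mutated minus wild-type 0.29, adjusted p = 1.0e-04) and Stag3, the meiotic STAG subunit (0.42, adjusted p = 1.0e-07), were higher with the mutated protein. Of 8 condensin subunits 1 was higher with IAA (Ncapd2, 0.23, adjusted p = 6.2e-04) and 3 were lower, Ncapg (-0.15), Ncaph2 (-0.16) and Smc2 (-0.12), with 3 to 6 lower over the scalings. Against the depleted control, condensin had 3 higher and 0 lower in the wild-type CTCF line (1 to 6 and 0 to 1 over the scalings) and 4 higher and 0 lower in the mutated line (2 to 7 and 0 in each), and at an unadjusted p under 0.05 in limma 5 higher and 0 lower in each line, where 27.7% and 27.3% of genes were higher and 13.6% and 15.8% lower. Of 8 genes of the SMC5/6 complex 6 were listed, of which 0 were higher and 1, Slf1 (-0.19, adjusted p = 1.9e-04), was lower with IAA, with 1 to 3 lower over the scalings. At an unadjusted p under 0.05 in limma the counts with IAA were 0 higher and 2 lower for the germline subunits and 0 higher and 1 lower for SMC5/6. Of all genes 23.1% were then higher and 22.3% lower. SMC5/6 had 0 called in the wild-type line (0 to 1 higher and 0 to 3 lower over the scalings). At an unadjusted p under 0.05 in limma it had 1 higher and 1 lower there, where 27.7% of genes were higher and 13.6% lower. In the mutated line it had 3 higher and 0 lower (0 to 5 and 0 to 1 over the scalings).

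Around Stag1, no other listed gene lay within 10 kb. A search of 500 kb on either side, added after the values were seen, found genes that moved in both directions. The nearest protein-coding ones were Pccb (22.7 kb away), a mitochondrial carboxylase subunit gene, and Slc35g2 (26.7 kb away). Pccb went from 313 ± 5.17 to 437 ± 29.5 normalized reads with IAA (log2 difference 0.48, adjusted p = 1.3e-05). It was at 441 ± 39.3 in the wild-type line and 396 ± 8.24 in the mutated line. Neither line passed against the depleted control (0.013 and -0.14, adjusted p = 0.93 and 0.20). Slc35g2 went the other way with IAA, from 74.6 ± 10.4 to 23.3 ± 5.97 (-1.65, adjusted p = 4.1e-07). It reached 46.95 ± 10.8 in the wild-type line and 36.9 ± 9.33 in the mutated line. Nck1, which encodes an adaptor of tyrosine kinase signalling, was lower (-0.18, adjusted p = 5.0e-04), as was Msl2 (-0.13, adjusted p = 0.019), while Ppp2r3a (0.050, adjusted p = 0.55) and Il20rb (0.12, adjusted p = 0.14) did not pass. Smc1a and Mau2 each have a divergent neighbour within 0.2 kb of the start. Ribc1, 0.133 kb from Smc1a, was at -0.41 with IAA (adjusted p = 0.0502), and Sugp1, 0.079 kb from Mau2, at 0.016 (adjusted p = 0.87). A transcript on the opposite strand, Gm37564, overlaps the start of Stag2 at group means of 7.48 to 17.6 normalized reads. The libraries were strand-specific, but the strand setting of the counting is not given in the sources used here.

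Genes with the pattern most like each member over the 8 libraries were found among 10137 genes with a mean of at least 100. The measure was the root mean square difference of log2 values, each gene taken relative to its own mean over these libraries. For Stag1 the most alike genes were A830018L16Rik (0.039, body of 562 kb), Gm30228 (0.053, a lincRNA) and AW554918 (0.060, 298 kb). For Stag2 they were Ube2h, Mkln1 and Nup205 (0.016 to 0.020), for Rad21 Spdl1, Prpf39 and Parn (0.014 to 0.016), and for Smc3 Rfc1 and Eif3h (0.022 each). For Nipbl they were Nek7, Kdm6a and Arfgef1 (0.018 to 0.021), for Smc1a Ccdc12, Odf2 and Rpia (0.026 to 0.034), and for Mau2 Gspt1, Atg13 and Cbx5 (0.024 to 0.026). Among the members the closest pair was Rad21 and Smc3 (0.042), and the furthest was Nipbl and Stag1 (0.25).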

How the data were processed

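TT-seq was measured in 8 libraries of 4 groups, assigned by sample titles and treatment labels. The authors deposited normalized read signal per gene. The submitters' processing notes name Trim Galore, STAR, featureCounts, DESeq2 and mm10. Counting settings and annotation are not given in the sources used here. Each library's deposited values were whole multiples of 1 step (0.836 to 1.19, tolerance 0.01 of a step), which gave the depth. Molecular identifiers are not mentioned, so counting error is the least error of a value; for Mau2 it reached 4.45%. Columns from samples of other series numbered 0.

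The test was limma 3.58.1 (R 4.3.3) with a mean-variance trend on log2(value + 1), fitted to all 8 libraries with 1 coefficient per group (4 residual degrees of freedom). This scale understates changes of low genes. Genes with a mean of at least 10 were tested (15818, including all 7 members), with Benjamini-Hochberg adjustment within each of 6 comparisons at 0.05. The script was checked on simulated reads. Positions are GENCODE M21 on GRCm38, in which 16917 of 16940 IDs were found. The members and lists (cohesin regulators, germline cohesin, condensin, SMC5/6, cell type markers) were chosen with earlier results of these data known. The named genes were the members, called list genes, neighbours and up to 3 most alike per member; Wapl and uncalled neighbours were named after their values were seen. Alternatives covered pseudocount, filter, scaling, length and GC, trend, block and left-out libraries. The gene targeted by the degron and a planned motif search of promoters are not reported here.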

Additional observations from a re-analysis of the deposited data

Results flagged for a closer look

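The change from the depleted control differed between the mutated and the wild-type CTCF lines for 4 members, by limma's test of the mutated against the wild-type line, in which 34.7% of all genes were called. The mutated minus wild-type difference was 0.14 for Smc3, 0.13 for Rad21, 0.093 for Stag2 and -0.083 for Stag1 on the log2 scale. Both libraries of each line lay on the stated side for all 4 genes. Without replicate 1 of wild-type CTCF only the Smc3 call was left, and without the mean-variance trend 0 of the 4 passed. The Stag1 difference turned to 0.072 after the length and GC correction. Groups of 2 are too small for a check of outlying libraries.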

How the results depend on the processing

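Of 756 values of members under alternatives, 55 lost and 17 gained the call in the same direction. Of the 486 values of differences called on the deposited scale, 4 changed sign. Of the 270 values of differences not called there, 45 did: 33 under another scaling, 8 under the length and GC correction and 4 with a library left out. The sign changes of a called difference, or to a called one, came with the length and GC correction, with and without the replicate block: Stag1 in mutated against wild-type CTCF (0.072 in both), Nipbl in that comparison (0.050 in both) and Stag2 in mutated CTCF against the depleted control (0.013 in both). In the last comparison the number of members called fell from 5 to 3 under the upper quartile, 3 with factors from genes under 30 kb, 2 with the length and GC correction and 2 with that correction and the block, while the genes called went from 5433 to 5289, 5146, 5264 and 5334. Without the mean-variance trend, 2 members (Stag1 and Stag2) were called with IAA, 1 with wild-type and 1 with mutated CTCF against the depleted control (Stag1 in both), 0 between the lines (2 higher and 0 lower at an unadjusted p under 0.05, where 17.7% of genes were higher and 19.7% lower) and 4 for mutated CTCF against untreated. The genes called were then 3946, 2379, 3228, 3263 and 3869, against 5967, 4991, 5433, 5489 and 5975. Leaving out 1 library gave 2 to 4 members and 4284 to 4773 genes with IAA, 2 to 3 and 3274 to 4622 with wild-type CTCF, 4 and 3963 to 4426 with mutated CTCF, 1 to 4 and 3969 to 4875 between the lines, 4 and 4996 to 6197 for wild-type CTCF against untreated, and 5 to 7 and 4234 to 5000 for mutated CTCF against untreated. Where this left a group with 1 library, that library was assumed to vary like the other groups. Per kilobase of merged exons the untreated levels were 2494 for Stag1, 1500 for Rad21, 1407 for Nipbl, 897 for Smc3, 680 for Stag2, 297 for Smc1a and 58.3 for Mau2. Same-numbered libraries did not deviate together across genes (mean correlation 0.0037, from -0.022 to 0.028 over 6 pairs). The summed normalized value was nevertheless higher in replicate 2 than in replicate 1 of each group. With the replicate block, member counts stayed at 4, 3, 5, 4 and 7, and rose to 5 for wild-type CTCF against untreated, while the genes called rose to 6423, 5532, 5920, 5981 and 6397, and to 7237. The planned count tests (edgeR and DESeq2) were not run: the step of 1 library (0.989) was too near 1 to pass the check applied to recovered reads, although its values were whole multiples of it.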
